A study of Homo sapiens with 6 samples.

Results

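The mRNAs of 10 amino acid transporters were followed in SW480 cells, a line established from a human colon adenocarcinoma, with and without a short hairpin RNA against the splicing factor RBM39. The genes are SLC7A11, SLC7A5, SLC3A2, SLC7A1, SLC38A1, SLC38A2, SLC1A4, SLC1A5, SLC6A9 and SLC43A1. They were taken by name out of 56303 gene symbols in the count table, from a list drawn up with earlier results of these data known, and all 10 were among the 18243 genes with enough counts to be tested. RBM39 is an RNA-binding protein of the spliceosome, and the libraries were made to find the splicing events that it regulates in colon cancer cells. Cells carried lentivirus with a nonsilencing hairpin (shCtrl, genotype WT, 3 libraries) or with a hairpin against RBM39 (shRBM39, genotype RBM39 knockdown, 3 libraries). Stable clonal lines had been selected with puromycin and were grown in RPMI medium with serum and, by the methods, added glutamine. Whether each group is 1 clone is not stated, so a difference between clones and the effect of the hairpin cannot be told apart.

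Amino acids cross the plasma membrane through carriers that differ in substrate and in coupling. SLC7A5 (LAT1) and SLC7A11 (xCT) are light chains that reach the cell surface only when bound to the heavy chain SLC3A2 (4F2hc, CD98). LAT1 exchanges intracellular glutamine for leucine and other large neutral amino acids, and xCT exports glutamate and takes up cystine, the source of cysteine for glutathione. Colon cancer cells rely on such carriers for growth signalling through mTORC1 and for redox balance. Several of these genes are known targets of ATF4, the transcription factor that is made when amino acids run short or when protein folding is disturbed.

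All 10 transporter mRNAs were lower in shRBM39 than in shCtrl. In each of the 10, the highest shRBM39 library stayed below the lowest shCtrl library, and each passed edgeR's quasi-likelihood test with an adjusted p under 0.05. Among all genes tested, 59.1% were called in either direction, 29.9% were called lower and 32.3% were lower without overlap of the libraries. Log2 fold changes of the 10 ran from -1.77 for SLC7A11 to -0.22 for SLC7A5, with a median of -0.45 against -0.01 over all genes tested. SLC7A11, SLC43A1 and SLC1A4 were more than 2-fold lower, which 4.16% of all genes tested were, and 6 of the 10 changed by less than 0.5 on the log2 scale. Against a log2 fold change of 0.5 in place of 0, these 3 were still called and the other 7 were not, beside 6.58% of all genes tested called lower in that way.

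The targeted gene was lower in the libraries labelled shRBM39. RBM39 had 441, 448 and 435 CPM (CPM is the usual per-library scaling of counts, here with the TMM factors of edgeR) in shCtrl and 266, 276 and 292 CPM in shRBM39. Its log2 fold change was -0.67 ± 0.04 (SE, n = 3 per group; edgeR adjusted p 1.24e-16). Libraries held from 18042924 to 20428901 counts, and the 10 genes from 101 to 21371 counts in a library. Pairs of libraries within a group differed by more than sampling noise, with chi-square values of 2.09 to 4.10 per degree of freedom, and were kept as separate samples. Of 11 colon epithelial markers, 9 averaged at least 1 CPM, and CDX1 and CEACAM5 did not. The summed epithelial markers ran from 11767 to 12588 CPM in shCtrl and from 14809 to 15381 CPM in shRBM39. Those of 5 leukocyte markers stayed at or below 0.694 CPM in every library, with PTPRC at 0. Those of 5 fibroblast markers ran from 10.0 to 11.1 CPM in shCtrl and from 14.0 to 14.6 CPM in shRBM39, and those of 4 endothelial markers from 3.47 to 4.57 and from 6.45 to 7.95 CPM, with KDR at 0. Their part in the transporter values was not tested. In these bulk libraries, fewer cells of a kind and less RNA per cell cannot be told apart.

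**Figure D1:**
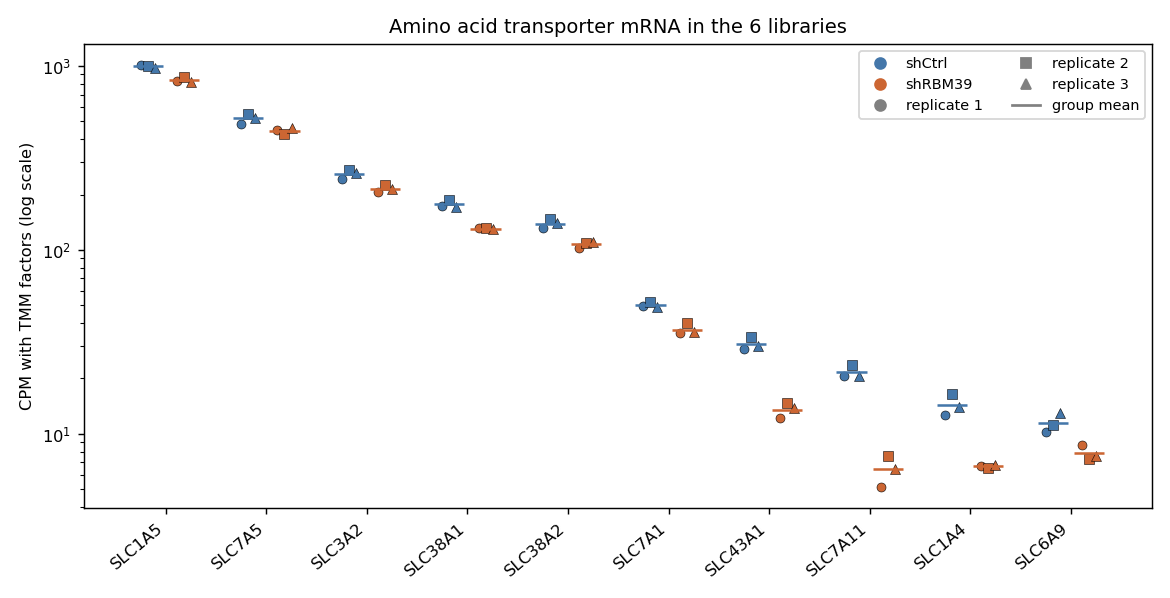
CPM (log scale) of each transporter in the 3 shCtrl libraries (blue) and the 3 shRBM39 libraries (orange), with symbols for the replicates and a bar for the group mean. The shRBM39 values lie below all shCtrl values for each of the 10 genes, with the widest gap for SLC7A11 (21.7 against 6.41 CPM on average).

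SLC7A11 (chromosome 4, 138164097 to 138242349, minus strand, GRCh38), the cystine and glutamate exchanger, fell most. It had 20.6, 23.8 and 20.7 CPM in shCtrl and 5.16, 7.61 and 6.45 CPM in shRBM39. The groups lay far apart, and the lowest value was that of shRBM39 replicate 1. The means were 21.7 ± 1.82 and 6.41 ± 1.23 CPM (SD, n = 3), and the gene was 3.41-fold lower by the fit, with a log2 fold change of -1.77 ± 0.10 (SE; edgeR adjusted p 3.27e-17). Counted from the lowest log2 fold change, it ranked 123 among the 18243 genes tested. On log2(RPKM + 1), where the added 1 shrinks changes of weakly expressed genes, its value was -1.03 and still called. The exons of SLC7A11 overlap those of the antisense gene SLC7A11-AS1, which had 3.94 CPM in shCtrl and 1.72 CPM in shRBM39 on average. The library kit keeps strand, but the strand setting of the counting is not given in the sources used here, so that reads of this pair may not be fully separated.

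The heavy chain SLC3A2 (chromosome 11, 62856102 to 62888875, plus strand) changed far less. Its values were 244, 273 and 261 CPM in shCtrl and 206, 225 and 214 CPM in shRBM39. The groups did not overlap, and the distance between the nearest libraries was 18.9 CPM. SLC3A2 was 1.205-fold lower by the fit, a log2 fold change of -0.27 ± 0.04 (SE; edgeR adjusted p 9.46e-07). SLC7A5 (chromosome 16, 87830023 to 87869488, minus strand), the leucine transporting light chain, had 484, 551 and 523 CPM in shCtrl and 448, 425 and 461 CPM in shRBM39. shCtrl replicate 1 and shRBM39 replicate 3 came within 22.3 CPM of each other, the groups again without overlap. The change of SLC7A5 was the smallest of the 10, at -0.22 ± 0.04 (SE; edgeR adjusted p 2.43e-05). Scaled by library totals alone it was -0.35, while the median of all genes moved by -0.12 under that scaling and 40.4% of all genes were called lower. Part of the SLC7A5 sequence recurs in the pseudogenes SLC7A5P1 and SLC7A5P2, which held at most 73 and 233 counts in a library against at least 7314 for SLC7A5.

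Ratios within a library set the light chains against their shared heavy chain. They were taken on RPKM, which divides the counts by the length of the merged exons and by the library total. The ratio of SLC7A5 to SLC3A2 was 2.16, 2.20 and 2.19 in shCtrl and 2.37, 2.06 and 2.35 in shRBM39. The groups overlapped through shRBM39 replicate 2 alone, and the log2 difference of 0.05 had an exact two-sided permutation p of 0.4. Without that library the log2 difference was 0.11, and without shRBM39 replicate 1 or replicate 3 it was 0.0099 or 0.016. The ratio of SLC7A11 to SLC3A2 was 0.0453, 0.0468 and 0.0425 in shCtrl and 0.0134, 0.0181 and 0.0162 in shRBM39, a log2 difference of -1.51. Its exact permutation p of 0.1 is the smallest that 3 libraries against 3 allow. The share of the cystine carrier relative to its heavy chain was thus lower in each shRBM39 library than in any shCtrl library, while the ratio of the LAT1 pair did not separate the groups and depended on which shRBM39 library was left out.

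**Figure D2:**
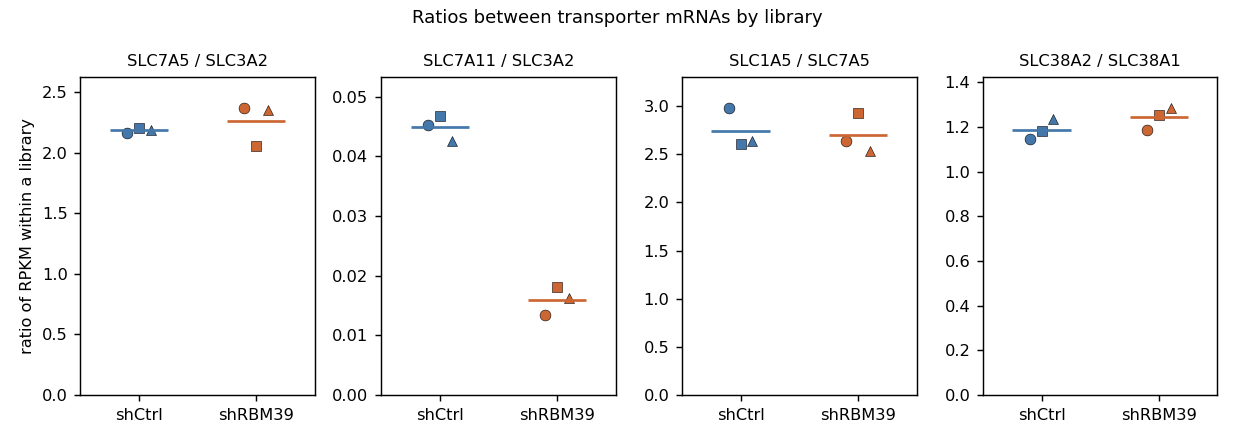
Ratio of RPKM within each library for 4 pairs of transporters, with shCtrl in blue, shRBM39 in orange, symbols for the replicates and bars for the group means. Axes start at 0. The ratio of SLC7A11 to SLC3A2 separates the groups (0.0449 against 0.0159 on average) and the other 3 ratios overlap between them.

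The carriers of glutamine and small neutral amino acids come next. SLC1A5 (ASCT2; chromosome 19, 46774883 to 46788594, minus strand), which exchanges glutamine for other neutral amino acids, was the most abundant of the 10. Its values were 1012, 1007 and 970 CPM in shCtrl and 832, 875 and 823 CPM in shRBM39. All shRBM39 libraries were lower, and the means were 996 ± 22.8 and 843 ± 28.2 CPM (SD, n = 3). The log2 fold change was -0.24 ± 0.04 (SE; edgeR adjusted p 1.12e-06). Under library totals alone it was -0.36.

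SLC1A4 (ASCT1; chromosome 2, 64988477 to 65023865, plus strand), its relative that carries alanine, serine, cysteine and threonine, changed more. It had 12.7, 16.5 and 14.0 CPM in shCtrl and 6.69, 6.51 and 6.76 CPM in shRBM39. The shRBM39 libraries lay close together and the shCtrl libraries were spread, with replicate 2 highest. SLC1A4 was 2.17-fold lower by the fit, a log2 fold change of -1.12 ± 0.10 (SE; edgeR adjusted p 7.99e-12), which was -0.72 on log2(RPKM + 1).

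SLC38A1 (SNAT1; chromosome 12, 46183063 to 46270017, minus strand) and SLC38A2 (SNAT2; chromosome 12, 46358189 to 46372867, minus strand) are sodium-coupled carriers that load cells with glutamine and alanine. SLC38A1 had 174, 188 and 172 CPM in shCtrl and 131, 131 and 130 CPM in shRBM39. SLC38A2 had 131, 146 and 140 CPM in shCtrl and 103, 109 and 110 CPM in shRBM39. Both genes were lower in all shRBM39 libraries, with log2 fold changes of -0.44 ± 0.04 and -0.38 ± 0.04 (SE; edgeR adjusted p 8.94e-12 and 1.71e-09). The ratio of SLC38A2 to SLC38A1 averaged 1.19 ± 0.0448 in shCtrl and 1.24 ± 0.0508 in shRBM39 (SD, n = 3), with overlapping libraries, a log2 difference of 0.06 and an exact permutation p of 0.2. The ratio of SLC1A5 to SLC7A5, the uptake and exchange steps for glutamine, averaged 2.74 ± 0.208 and 2.71 ± 0.205 (SD, n = 3), with an exact permutation p of 0.7.

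Among the carriers of other substrates, SLC43A1 changed most. SLC43A1 (LAT3; chromosome 11, 57484534 to 57515786, minus strand) lets leucine and other large neutral amino acids cross without exchange. Its values were 28.9, 33.5 and 30.02 CPM in shCtrl and 12.1, 14.8 and 13.8 CPM in shRBM39. No library of one group came near the other, and SLC43A1 was 2.28-fold lower by the fit, a log2 fold change of -1.19 ± 0.07 (SE; edgeR adjusted p 7.95e-16).

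SLC7A1 (CAT1; chromosome 13, 29509410 to 29595688, minus strand) carries arginine and lysine. It had 49.9, 52.2 and 48.7 CPM in shCtrl and 35.3, 39.9 and 35.6 CPM in shRBM39. The groups stood 8.82 CPM apart at their nearest libraries, and the log2 fold change was -0.45 ± 0.05 (SE; edgeR adjusted p 3.88e-09). SLC6A9 (GlyT1; chromosome 1, 43991500 to 44031467, minus strand), the glycine transporter, had 10.3, 11.2 and 12.9 CPM in shCtrl and 8.73, 7.32 and 7.54 CPM in shRBM39. The gap between the groups was narrow, at 1.54 CPM, with a log2 fold change of -0.54 ± 0.10 (SE; edgeR adjusted p 1.94e-05). Exons of SLC6A9 overlap those of CCDC24 on the other strand, which had 9.27 CPM in shCtrl and 11.8 CPM in shRBM39 on average.

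**Figure D3:**
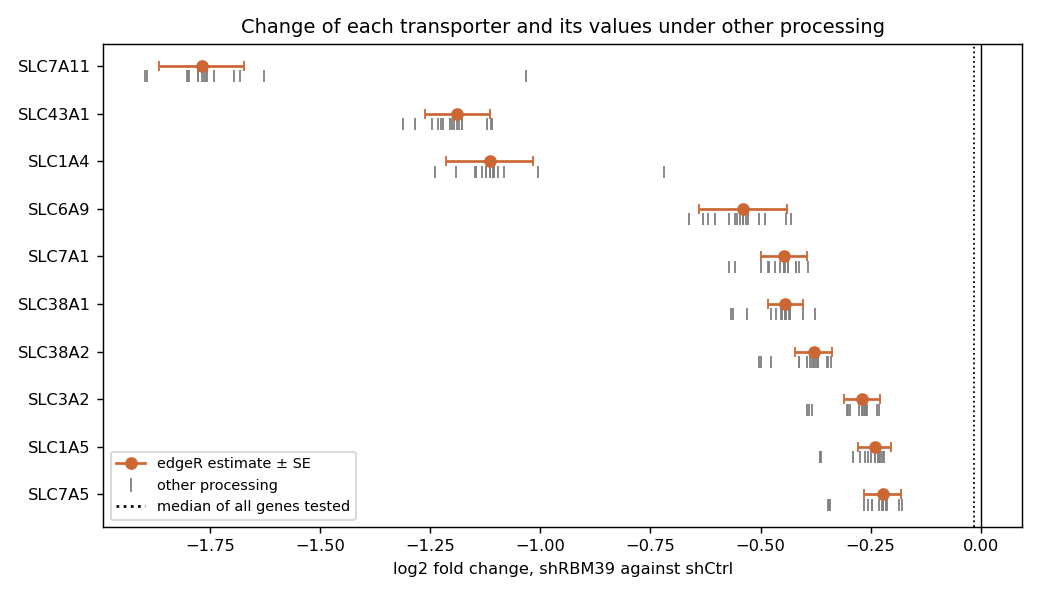
Log2 fold change of each transporter (shRBM39 against shCtrl): orange points are the edgeR estimates with their standard errors, grey ticks the values under other scalings, filters, scales, a replicate block and with single libraries left out, and the dotted line the median of all genes tested. All ticks lie below 0, and the values of SLC7A11 reach from -1.90 to -1.03.

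Levels per length gave an order of the transporters in each group. In shCtrl, SLC1A5 led with 312 ± 6.49 RPKM, followed by SLC7A5 with 114 ± 8.41, SLC3A2 with 52.2 ± 3.38, SLC38A2 with 21.98 ± 1.38 and SLC38A1 with 18.5 ± 1.01 RPKM (SD, n = 3). SLC43A1 and SLC7A1 had 9.10 ± 0.787 and 6.81 ± 0.273 RPKM. At the low end, SLC7A11, SLC6A9 and SLC1A4 had 2.34, 2.32 and 2.17 RPKM with overlapping libraries, so their order in shCtrl is not resolved. In shRBM39 no neighbours in the order overlapped, from SLC1A5 with 242 ± 7.53 RPKM down to SLC7A11 with 0.635 ± 0.120 RPKM. SLC7A1 with 4.59 ± 0.303 RPKM then stood above SLC43A1 with 3.67 ± 0.348 RPKM, the reverse of shCtrl by this measure. SLC7A11 stood below SLC6A9 with 1.46 ± 0.144 RPKM and SLC1A4 with 0.917 ± 0.0201 RPKM (SD, n = 3). The order rests on merged exon lengths (7692 bases for SLC7A1, 3532 for SLC43A1), which need not be those of the transcripts present. By mean CPM, SLC7A1 stood above SLC43A1 in shCtrl (50.2 against 30.8) and in shRBM39 (36.9 against 13.6). SLC38A1 stood above SLC38A2 by mean CPM, at 178 against 139 in shCtrl and 131 against 107 in shRBM39.

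The sum over the 10 genes was 2168, 2302 and 2192 CPM in shCtrl and 1790, 1842 and 1808 CPM in shRBM39, 18.4% lower on average. SLC1A5, SLC7A5 and SLC3A2 made up 79.9% of that sum in shCtrl, so it follows the genes with the smallest changes. Within shCtrl, replicate 2 was the highest library for 8 of the 10 genes. Without it, all 10 were still called lower, with a median log2 fold change of -0.41. Within shRBM39, replicate 1 was the lowest library for 5 of the 10.

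The RefSeq promoter windows (GRCh38.p14) of the transporters were read for short motifs, since all 10 genes were lower together. Symbols of 9 of the 10 genes matched the table, with 16 windows among them. The gene without a match was SLC7A11. The letters TGATGNAA, the core of the C/EBP-ATF response element to which ATF4 with a C/EBP partner can bind, were searched on both strands. They occurred in 5 of the 16 windows, 1 each of SLC1A4, SLC1A5, SLC38A1, SLC3A2 and SLC7A1, and in 3.62% of all 35116 windows. The matches are shown here as up to 30 bases in the sense of the gene, 5′ to 3′, with the match in capitals (TGATGNAA or its reverse complement), because these letters differ in their middle and in their flanks.
SLC1A4, chr2:64989381-64989410 (plus strand): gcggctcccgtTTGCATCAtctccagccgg
SLC1A5, chr19:46784893-46784922 (minus strand): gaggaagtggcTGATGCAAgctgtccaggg
SLC38A1, chr12:46266502-46266531 (minus strand): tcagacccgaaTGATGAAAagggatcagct
SLC3A2, chr11:62881725-62881748 (plus strand): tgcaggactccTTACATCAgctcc
SLC7A1, chr13:29595663-29595692 (minus strand): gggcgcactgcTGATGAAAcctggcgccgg
Counted from 0 at the first transcribed base, the matches start at -7 in SLC1A4, -97 in SLC1A5, -4 in SLC38A1, 37 in SLC3A2 and 7 in SLC7A1. The windows of SLC1A4, SLC1A5, SLC38A1 and SLC3A2 each belong to 1 of several annotated starts of the gene. In SLC1A4 and SLC1A5 the match reads TGATGCAA on one of the strands, and in SLC38A1 and SLC7A1 it reads TGATGAAA.

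Other motifs were searched in the same way. TGACNNNGC, the core of the antioxidant response element bound by NRF2, was in 4 of the 16 windows (SLC1A5, SLC3A2, SLC7A1 and SLC7A5) and in 13.3% of all windows. CACGTG, the E-box bound by MYC with MAX, was in 3 of the 16 (SLC1A5, SLC43A1 and SLC7A5) and in 7.26% of all windows. TGACGTCA, the cyclic AMP response element, was in 0 of the 16 and in 1.85% of all windows. No match overlapped a match of another motif. A match says only that these letters stand in the window.

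Splicing of the transporters was read from the event table that the authors made with rMATS. Its columns are headed group 1 and group 2, with no key that links either heading to shCtrl or shRBM39. The groups were left unnamed, and their identity was not inferred from the reads. It holds 1582 events of all genes, each with a difference in inclusion level of at least 0.1. The events below were therefore selected for their difference, and no test is given. Of the 10 transporters, 3 had a listed event, which 6.54% of all genes tested had. These were 4 skipped exons in all, and 2 of the 4 had at least 20 reads in every library. Both belong to SLC3A2.

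The SLC3A2 exons are alternatives between the same flanking exons, and their lengths of 93 and 96 nucleotides are multiples of 3. They are fully coding in 9 and 1 GENCODE v44 transcripts, while neither is in the canonical transcript. In group 1, the 93-nucleotide exon of SLC3A2 was included at levels of 0.696, 0.723 and 0.681, against 0.792, 0.812 and 0.804 in group 2. At least 234 reads lay behind each level, and the groups did not overlap. For the 96-nucleotide exon the levels were 0.280, 0.279 and 0.240 against 0.444, 0.539 and 0.428, from at least 74 reads, again without overlap. Both exons thus had lower levels in group 1, by 0.103 and 0.204. They share the junction that skips them, with 77, 55 and 73 reads in group 1 and 31, 29 and 33 in group 2, so these are not independent observations.

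**Figure D4:**
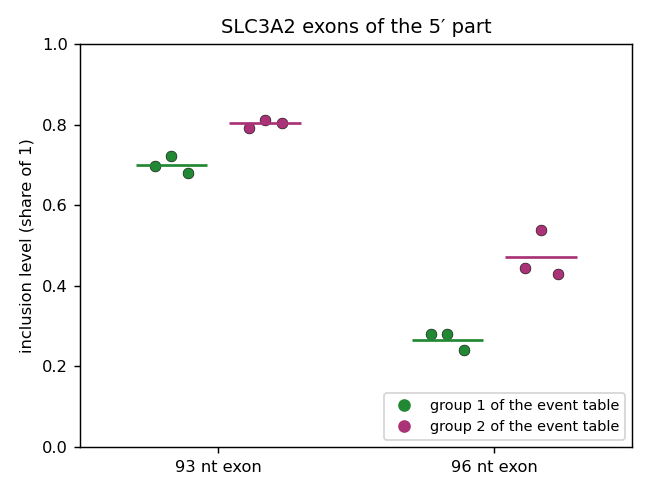
Inclusion level of the 93- and 96-nucleotide exons of SLC3A2 in the 3 values of group 1 (green) and of group 2 (purple) of the event table, with bars for the means. Which of the groups is shRBM39 is not given. Means are 0.700 and 0.803 for the shorter exon and 0.266 and 0.470 for the longer one. Each level sets an exon against skipping alone, so the levels of both exons are not shares of a whole.

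The other listed events rest on few reads. Exon 7 of 8 of SLC1A4 (chromosome 2, 65018545 to 65018679, 135 nucleotides) averaged 0.804 ± 0.215 in group 1 and 0.968 ± 0.0279 in group 2 (SD, n = 3), with overlapping values and 8 skipping reads in all. Exon 10 of 15 of SLC43A1 (chromosome 11, 57491591 to 57491626, 36 nucleotides) averaged 0.844 ± 0.0321 in group 1 and 1 in group 2, with 8 reads in its shallowest library and 4 skipping reads in all. No more is read from these 2 events at such depths.

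The 10 transporters were set beside 7 lists of related genes, with all calls by edgeR at an adjusted p under 0.05. By the same rule 59.1% of all genes tested were called, 29.9% lower and 29.2% higher, and each count below stands beside these shares. Of 32 other plasma membrane amino acid transporters, 13 could be tested, of which 6 were lower, 3 were higher and 4 were not called, with a median log2 fold change of -0.11. SLC38A3, a glutamine carrier, had means of 12.5 ± 0.177 and 8.65 ± 0.158 CPM (SD, n = 3) and fell by 0.53 on the log2 scale. SLC6A6, the taurine transporter, was lower by a log2 fold change of -0.37. SLC7A8 (LAT2), another light chain of SLC3A2, went the other way, from 74.3, 78.2 and 79.4 CPM in shCtrl to 120, 116 and 116 CPM in shRBM39. Its log2 fold change was 0.60 ± 0.04 (SE; edgeR adjusted p 1.31e-14). The number called in this list was 9, and 5 without shCtrl replicate 1 or replicate 2.

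Carriers of lysosomes and mitochondria had calls in both directions, as did all genes tested. Of 11 lysosomal carriers, 10 could be tested, of which 1 was lower, 4 were higher and 5 were not called, with a median of 0.06, and the number called was 3 in place of 5 without shRBM39 replicate 3. SLC36A1 and CTNS, the lysosomal exporters of proline and small amino acids and of cystine, had log2 fold changes of 0.29 and 0.28, and SLC29A3, a nucleoside carrier and so no carrier of amino acids, had -0.31. Of 13 mitochondrial carriers, 11 could be tested, of which 2 were lower, 4 were higher and 5 were not called. SLC25A13 (citrin), which exchanges aspartate and glutamate, rose with a log2 fold change of 0.54, SLC25A39 rose with 0.47, and SFXN3, a serine carrier, fell with -0.42.

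**Figure D5:**
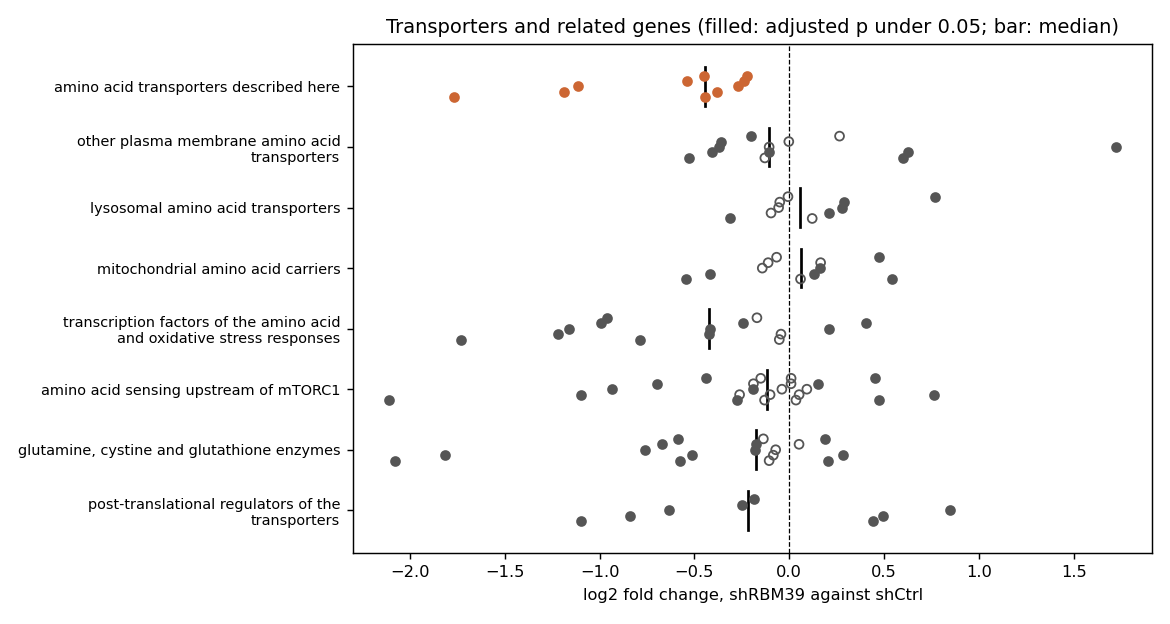
Log2 fold change (shRBM39 against shCtrl) of the 10 transporters (orange) and of the tested genes of 7 related lists (grey), filled where the adjusted p is under 0.05, with a bar at the median of each list. The 10 transporters lie wholly below 0, with a median of -0.45, and the lysosomal and mitochondrial carriers lie on both sides of 0 with medians of 0.06.

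Of 14 genes listed as transcription factors of the amino acid and oxidative stress responses, 9 were lower and 2 were higher, with a median of -0.42. TRIB3, a pseudokinase that binds ATF4 and is induced by it, is no transcription factor. It fell with a log2 fold change of -1.73, and DDIT3 (CHOP) with -1.22. ATF4 itself had -0.43, NFE2L2, which encodes NRF2, -0.42, and MYC -0.96. These 3 were added to the text for their roles and are outside the rule for named genes. BACH1, MAX and MLXIP of the same list, also outside that rule, were not called, with -0.17, -0.04 and -0.05. MLX, the partner of the MondoA and ChREBP factors, was higher, at 0.41.

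Of 24 genes listed for amino acid sensing by mTORC1, 22 could be tested, of which 7 were lower, 4 were higher and 11 were not called. Not all of them are sensors: MTOR and RPTOR, among the 4 higher with 0.45 and 0.15, are parts of mTORC1 itself. DDIT4, which is no amino acid sensor, and SESN2 are both inhibitors of mTORC1 and fell with log2 fold changes of -2.11 and -1.10. RRAGB and DEPDC5 rose with 0.76 and 0.47. Of 17 enzymes of glutamine, cystine and glutathione metabolism, 9 were lower and 3 were higher. ASNS, which makes asparagine from aspartate and glutamine, had means of 114 ± 4.36 and 27.1 ± 6.20 CPM (SD, n = 3) and fell by 2.08 on the log2 scale. CBS, an enzyme on the path from homocysteine to cysteine, fell with -1.81, and TXNRD1, the cytosolic thioredoxin reductase, and GLUL, glutamine synthetase, rose with 0.28 and 0.20. Of 8 genes listed for the turnover or surface level of carriers, 5 were lower and 3 were higher. The lower ones include SLC7A6OS (-0.18), for which no such role is known here. TXNIP and its relative ARRDC4 fell with -1.10 and -0.84, and the ubiquitin ligase gene NEDD4 and the deubiquitinase gene OTUB1 rose with 0.49 and 0.44.

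Profiles over the 6 libraries were compared with those of 12048 other genes of at least 5 CPM, by the distance between log2 CPM values after the shCtrl mean was taken off. The nearest to SLC7A11 were TRIB3 (0.144), RAB39B (0.148) and ADM2 (0.171), with log2 fold changes of -1.73, -1.81 and -1.76. The nearest to SLC43A1 were HIST1H2AC (0.0725), DDIT3 (0.121) and FUT1 (0.135), with -1.21, -1.22 and -1.23. These distances describe likeness over 6 libraries in 2 groups only. Taken from the shCtrl mean, they mostly reflect the fold change, so the like fold changes of the nearest genes follow from the measure. Shared regulation was not tested.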

How the data were processed

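Stranded mRNA libraries of 6 SW480 samples were sequenced by the study. Group and replicate came from the sample titles, and columns named NC were assigned to shCtrl, since the labels name no other control. The deposited tables hold raw counts for each gene symbol, with merged exons, and RPKM that the authors derived from them. The submitters' processing notes name Trimmomatic 0.36, STAR 2.5.3a, featureCounts (Subread 1.5.1), edgeR 3.12.1 and GRCh38, with no roles. The handling of multi-mapped reads, strand and unique identifiers and the annotation release are not given in the sources used here. RPKM recomputed here from the counts differed from the deposited values by at most 1.21e-13 of the value. Columns of the authors' own splicing comparison (p-values, FDR, differences) were not used, and inclusion levels were computed from their inclusion and skipping reads, corrected for effective length, with starts counted from 1.

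The main test ran in R 4.3.3 with edgeR 4.0.16. Low genes were removed by filterByExpr, which left 18243, and libraries were scaled by TMM. The quasi-likelihood model held only the group, and p-values were adjusted by Benjamini-Hochberg across the 18243 genes, with calls at 0.05. Standard errors were derived from the fold change and its F statistic. TMM factors were 1.03 to 1.05 in shCtrl and 0.955 to 0.960 in shRBM39. The replicate numbers share no stated batch, and p-values measure the spread between these samples, described as replicate experiments. The fits were run on simulated counts with 200 changed genes, whereas 10790 genes were called in the data. Because of that unlike setting the simulation cannot test the scaling or the calls here, and no result is drawn from it. Alternatives used DESeq2 1.42.0, limma 3.58.1 on log2(RPKM + 1) and log2(RPKM + 0.1), other scalings and filters, a replicate block, each library left out, stricter thresholds, and a correction for GC content and length (GC content known for 99.9% of genes).

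The transporters and the related lists were chosen with earlier results of these data known. Named from each list were at most 2 genes at each end among those called with a mean of at least 5 CPM. A few listed genes outside this rule were added to the text. The 3 nearest profiles were named for the 2 transporters that changed most. Depth limits the low genes: SLC7A11, SLC1A4 and SLC6A9 had 101 to 505 counts in a library. Some genes and sequences that these steps touched are not reported here.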

Additional observations from a re-analysis of the deposited data

How the results depend on the processing

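The 10 transporters were called lower under 16 of 17 alternatives, and of 170 fold changes 163 kept direction and call. Those at an adjusted p under 0.01 and against 0.5 are the fold changes of the main fit, so their direction was fixed. Of all genes tested, DESeq2 called 24.1% lower and library totals alone 40.4%. The exception among the 17 was the test that sets 0.5 on the log2 scale as its null, which asks for a larger difference. There 3 of the 10 were called, and SLC7A5 (-0.22), SLC3A2 (-0.27), SLC7A1 (-0.45), SLC38A1 (-0.44), SLC38A2 (-0.38), SLC1A5 (-0.24) and SLC6A9 (-0.54) were not. That test called 2232 of all genes in place of 10790. In the related lists it called 2 other plasma membrane transporters, 0 lysosomal and 0 mitochondrial carriers and 6 of the transcription factor list. It also called 5 of the sensing list, 4 enzymes and 3 of the list for carrier turnover or surface level. For those 2 lists at 0, the same edgeR test gave 1 and 0 genes at an unadjusted p under 0.05, and edgeR against no change called 5 and 6. Of other plasma membrane transporters, DESeq2 and an adjusted p under 0.01 each called 5 (9 in the report), and fits without 1 library 5 to 7. Of lysosomal carriers, DESeq2 and an adjusted p under 0.01 each called 2 (5 in the report), and fits without 1 library 3 to 5. The log2 difference of the SLC1A5 to SLC7A5 ratio ran from -0.0787 to 0.0429 with single libraries left out, positive without shCtrl replicate 1 (0.0429) or shRBM39 replicate 3 (0.0257). That of SLC7A5 to SLC3A2 ran from 0.00993 to 0.112, and that of SLC38A2 to SLC38A1 from 0.0386 to 0.0972. Without the correction for effective length, the difference of the 93-nucleotide SLC3A2 exon was -0.0747 in place of -0.103. With the replicate number as a block, 10810 genes and all 10 transporters were called. Deviations of same-numbered libraries correlated from -0.05 to 0.04 over genes, so the numbers were not treated as pairs. Library totals alone gave 33.9% of calls as higher, against 49.4%, and limma on RPKM gave 33.6%. SLC1A4 and SLC43A1 events had under 20 reads in a library and give no value at that minimum.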
